A study of Mus musculus with 15 samples.

Results

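The genotype comparison in sorted PD-1+ CD8+ T cells of E.G7 tumours rests on 6 of the 15 libraries of the series: 3 labelled KO and 3 labelled wild type with the number 2. They were chosen by title, because the files of these 6 libraries list the same genes. E.G7 is a mouse lymphoma line that arose from EL4 cells and carries the model antigen ovalbumin. The cells were placed under the skin of female mice aged 6 to 8 weeks, and T cells were sorted from the tumours on day 21. One library of each genotype came from each of 3 sorted populations: DN cells (PD-1+ without Tim-3 or B7S1R), TIM-3_SP cells (PD-1+ with Tim-3 only) and B7S1R_SP cells (PD-1+ with B7S1R only). All mice carried the same tumour, no mouse was treated, and the age given is 9 to 11 weeks. The labels do not say how many mice stand behind a sorted library, so the spread between libraries may be technical. The genotype field reads B7S1 KO for the B7S1R_SP library and counts on to B7S2 KO and B7S3 KO for the TIM-3_SP and DN libraries, and the strain field runs from C57BL/8 to C57BL/13 over the 6 libraries. Genotype is therefore used as titled, and KO below stands for a library labelled KO.

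B7S1, encoded by Vtcn1, is a ligand of the B7 family that restrains T cells when it binds its receptor on them. By the labels the deletion is in the host mice, and the E.G7 cells are not labelled as altered. PD-1, encoded by Pdcd1, is an inhibitory receptor that stays on T cells under lasting antigen contact, a state called exhaustion. Such cells often add further receptors, among them Tim-3 and Lag-3, and lose part of their cytokine output, while a stem-like pool with the transcription factor TCF-1 keeps the ability to divide.

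Vtcn1 was not lower in the libraries labelled KO. It was listed at 0 FPKM (fragments scaled for transcript length and library size) in all 3 wild-type libraries, and at 1.02, 2.5 and 0.16 FPKM in the DN, TIM-3_SP and B7S1R_SP libraries labelled KO. The gene spans positions 100825459 to 100896922 of chromosome 3 (GRCm38), and 1 value per gene cannot tell its exons apart. Every direction given below rests on the labels. The sort on Tim-3 was visible in both genotypes: Havcr2, which encodes Tim-3, stood at 81.8 FPKM in wild-type and 27.4 FPKM in KO TIM-3_SP, and at 4.09 FPKM or less in the other 4 libraries. The CD8 chain gene Cd8b1 was at 213.5 FPKM or more in all 6 libraries, and Cd8a was lowest in B7S1R_SP, at 55.0 FPKM in wild type and 48.6 FPKM in KO. Cd4 was at 6.03 FPKM or less.

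Red-cell and myeloid RNA differed between the libraries. The haemoglobin genes made up 7.85%, 9.72% and 1.14% of all FPKM in wild-type DN, TIM-3_SP and B7S1R_SP, and summed to 142.5, 11.0 and 4.72 FPKM in the same populations labelled KO. The wild-type libraries numbered 1 do not list all of these genes. Hba-a2, which they list, was at 3.14, 0 and 0 FPKM there and at 14371, 19137 and 2318 FPKM in those numbered 2. High haemoglobin RNA was thus not shared by all wild-type libraries. The 7 haemoglobin genes were set aside, but other red-cell genes such as Alas2, the first enzyme of haem synthesis, stayed in. The 20 myeloid genes summed to 8138 FPKM in B7S1R_SP labelled KO, against 665.8 FPKM in its wild-type partner and 249.02 to 469.3 FPKM in the other 4 libraries. In the wild-type B7S1R_SP library numbered 1, outside this comparison, the 17 myeloid genes listed summed to 2467 FPKM. In DN labelled KO 8 of the 20 genes were at 0, in TIM-3_SP labelled KO 9, and in B7S1R_SP labelled KO 0. In their wild-type partners 10, 5 and 1 were at 0. The macrophage gene C1qa was at 0 FPKM in KO DN and TIM-3_SP and at 116.1 FPKM in KO B7S1R_SP, against 8.68 FPKM in its wild-type partner. The other marker lists summed to 0.22 to 13.4 FPKM for B cells, 11.2 to 56.4 FPKM for CD4 and regulatory T cells, 5.66 to 95.9 FPKM for stromal and endothelial cells and 12.3 to 733.2 FPKM for NK cells. In these 4 lists and the erythroid list 0 genes passed. Of the 20 myeloid genes 18 were tested and 0 passed, with a median log2 difference of 0.79, which was -0.26 without the B7S1R_SP pair. The part of these cells in the differences below was not tested. In bulk sorted samples, fewer cells of a type and less RNA per cell cannot be told apart.

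**Figure D1:**
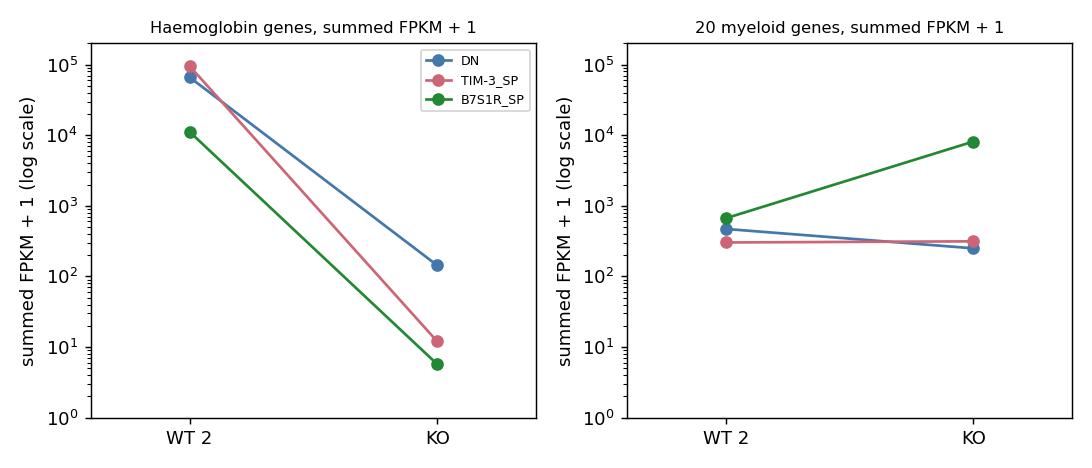
Summed FPKM + 1 of the haemoglobin genes (left) and of 20 myeloid genes (right) on a log scale, in the wild-type library numbered 2 and the KO library of each population, joined by a line. Haemoglobin sums were 11164 FPKM or more in the wild-type libraries and 142.5 FPKM or less in those labelled KO, while the myeloid sum stood at 8138 FPKM in B7S1R_SP labelled KO and at 665.8 FPKM or less in the others.

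The DN pair stood furthest apart. Of the 10092 genes that averaged 1 FPKM or more, 44.6% differed by more than 1 on the log2(FPKM + 1) scale between the DN libraries, and 19.8% and 23.2% did so in the TIM-3_SP and B7S1R_SP pairs. DN labelled KO correlated across genes at 0.935 with B7S1R_SP labelled KO, 0.922 with wild-type B7S1R_SP and 0.922 with TIM-3_SP labelled KO. With wild-type TIM-3_SP it correlated at 0.882 and with DN wild type at 0.851, and genes are not independent replicates. The median gene differed by -0.38 in DN and by -0.04 and -0.02 in the other populations. In DN this median differed with transcript length, at 0.13 for transcripts of up to 1669 bases and -0.65, -0.60 and -0.45 in the 3 longer groups, each with about as many genes. The 79 ribosomal protein genes, a group chosen after its values were seen, took 22.8% of all FPKM in wild-type DN and 34.7% in DN labelled KO, 19.5% and 27.9% in TIM-3_SP, and 33.2% and 33.7% in B7S1R_SP. FPKM are shares of a library, so a larger share of one group lowers the others, and its part in the differences was not tested.

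Penk and Xkrx fell in the libraries labelled KO, and no other gene passed the threshold. The limma fit paired the libraries by population and called 2 of 10092 genes at an adjusted p of 0.05, which is 0.0198% of those tested, both lower. At an unadjusted p under 0.05 there were 1535 genes (15.2%), of which 980 were lower (9.71%) and 555 higher (5.5%). This split moved with the scaling, to 746 lower and 724 higher with median-ratio scaling and to 1374 and 329 when each library was set to one total without haemoglobin genes. The median gene moved from -0.16 to -0.05 and -0.36 under these 2 scalings. The number of calls also rested on single pairs: it was 4 without the DN pair, 274 without the TIM-3_SP pair and 169 without the B7S1R_SP pair. An exact sign-flip test of 3 pairs cannot go below a two-sided p of 0.25, so it was not used for single genes.

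Penk encodes proenkephalin, the precursor of the enkephalins, short peptides that bind opioid receptors. The gene lies on chromosome 4 from 4133536 to 4138815 (GRCm38). It stood at 1058 FPKM in DN, 617.5 FPKM in TIM-3_SP and 466.8 FPKM in B7S1R_SP of the wild type. In the libraries labelled KO it stood at 97.9, 30.1 and 39.8 FPKM in the same order. The genotypes did not overlap, and each pair showed a wide gap, with differences of -3.42, -4.31 and -3.52 on the log2 scale. The mean difference was -3.75 ± 0.29 (SE, 3 pairs; limma adjusted p = 0.00228). Every SE given here is the moderated one of limma, which borrows spread from other genes and can understate the spread between the pairs. Wild-type libraries numbered 1, which belong to another table, held 513.4, 640 and 4395 FPKM, also above every library labelled KO. The call of Penk was lost without the population term (limma adjusted p = 0.187), without the trended prior (0.148), with no filter on FPKM (0.594) and over 9 libraries with no term for the number (0.0665). It held without any 1 pair, where the limma adjusted p was at most 0.00467. Those fits reuse libraries in which Penk was already called, so they say little of how stable the call is.

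Xkrx, a member of the XK-related family on the X chromosome, was close to absent in all 3 libraries labelled KO. Its wild-type levels were 232.6 FPKM in DN, 56.7 FPKM in TIM-3_SP and 81.2 FPKM in B7S1R_SP. Its levels in the libraries labelled KO were 0.1, 0.03 and 0.14 FPKM. The genotypes did not overlap, and the mean log2 difference was -6.57 ± 0.48 (SE, 3 pairs; limma adjusted p = 0.00228). The wild-type libraries numbered 1 were less even, with 7.97 FPKM in DN, 239.4 FPKM in TIM-3_SP and 93.4 FPKM in B7S1R_SP. With the wild-type number as a replicate block over 9 libraries, no gene was called: the limma adjusted p was 0.186 for Penk and 0.102 for Xkrx. Xkrx also lost its call without the trended prior (limma adjusted p = 0.0536) and with no filter on FPKM (0.594).

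Pdcd1, which encodes the receptor PD-1 that all 6 libraries were sorted on as protein, read lower in every pair. Wild-type DN, TIM-3_SP and B7S1R_SP held 136.6, 83.8 and 28.5 FPKM. Those labelled KO held 12.1, 17.7 and 3.17 FPKM. The lowest wild-type library, B7S1R_SP, still lay above the highest KO library, TIM-3_SP. The pair differences were -3.40, -2.18 and -2.82 in the same order, with a mean of -2.80 ± 0.35 (SE, 3 pairs; limma adjusted p = 0.0697), so Pdcd1 did not pass. Wild-type libraries numbered 1 held 141.7, 488.7 and 353.3 FPKM.

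Igfbp6 had the largest mean log2 difference upwards among the genes named here. It encodes a binding protein that holds insulin-like growth factors, IGF-II above all, away from their receptor. Wild-type DN and TIM-3_SP held 1.22 and 3.35 FPKM, while wild-type B7S1R_SP already held 61.6 FPKM. The libraries labelled KO held 631.8 FPKM in DN, 73.7 FPKM in TIM-3_SP and 597.5 FPKM in B7S1R_SP. The genotypes did not overlap, though KO TIM-3_SP and wild-type B7S1R_SP lay close together. The mean log2 difference was 5.17 ± 0.77 (moderated SE, 3 pairs; limma adjusted p = 0.0843), which did not pass. The pairs ranged from 3.26 in B7S1R_SP to 8.15 in DN, with an SD of 2.62 over the 3 differences. The wild-type libraries numbered 1 held 1.79, 0 and 3.47 FPKM.

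**Figure D2:**
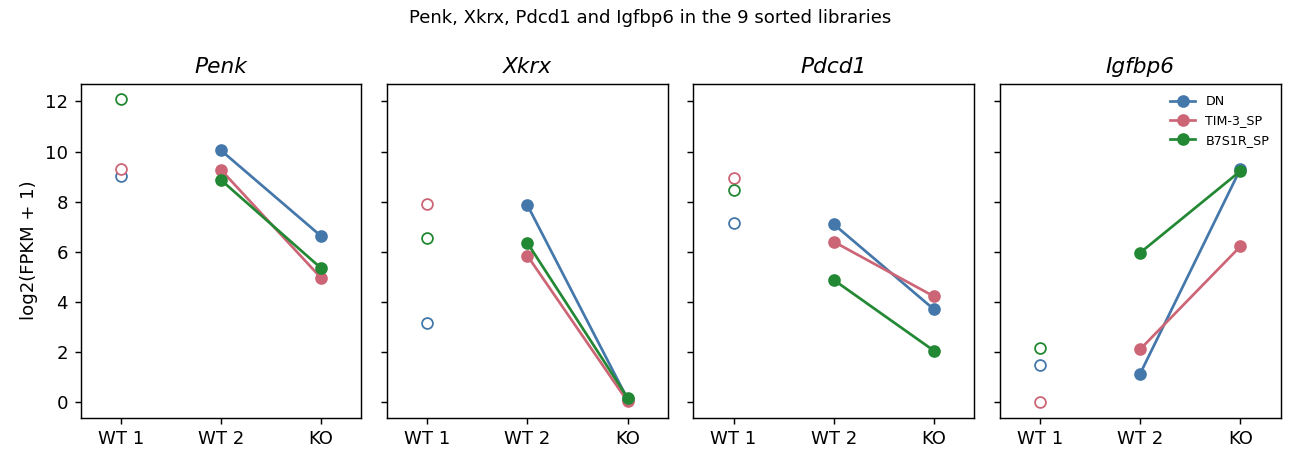
Levels of Penk, Xkrx, Pdcd1 and Igfbp6 as log2(FPKM + 1) in the wild-type libraries numbered 1 (WT 1, open circles), the wild-type libraries numbered 2 and the libraries labelled KO (filled circles, joined within a population). In all 3 populations the line runs down for Penk, Xkrx and Pdcd1 and up for Igfbp6, with Xkrx at 0.14 FPKM or less in the KO libraries.

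Upstream sequence of Xkrx, Pdcd1 and Igfbp6 is shown because these genes stand for the called and the given marker genes, Penk aside. Each is the 250 bases before a RefSeq start listed for the gene in GRCm38.p6, read 5′ to 3′ on the strand of the gene. Capitals mark the NFAT core GGAAA or its reverse TTTCC. The windows are chrX:134162960-134163209 (minus strand), chr1:94052554-94052803 (minus strand) and chr15:102143936-102144185 (plus strand). The Xkrx window lies inside the annotated span of its gene, from 134149037 to 134185497, so the start used for Xkrx is an internal one. The other windows adjoin the ends of their genes.
Xkrx: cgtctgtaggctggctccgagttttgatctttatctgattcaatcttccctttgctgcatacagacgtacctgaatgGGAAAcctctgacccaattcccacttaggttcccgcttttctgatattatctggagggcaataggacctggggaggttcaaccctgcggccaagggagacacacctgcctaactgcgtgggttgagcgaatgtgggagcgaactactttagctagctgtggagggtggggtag
Pdcd1: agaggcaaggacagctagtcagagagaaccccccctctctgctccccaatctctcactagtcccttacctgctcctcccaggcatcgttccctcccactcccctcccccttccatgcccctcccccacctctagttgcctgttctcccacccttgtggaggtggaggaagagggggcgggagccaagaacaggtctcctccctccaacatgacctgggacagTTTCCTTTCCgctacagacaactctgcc
Igfbp6: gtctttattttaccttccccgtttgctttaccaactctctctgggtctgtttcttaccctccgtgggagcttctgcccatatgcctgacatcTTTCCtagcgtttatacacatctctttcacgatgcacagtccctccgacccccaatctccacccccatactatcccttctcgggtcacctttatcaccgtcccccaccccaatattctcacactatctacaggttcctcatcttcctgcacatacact

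The Pdcd1 window held 2 adjoining matches to the NFAT core, and the Xkrx and Igfbp6 windows held 1 each. Such a match is common: 55.6% of 32851 RefSeq promoter windows of this length hold at least 1, on either strand. The AP-1 motif TGAGTCA or TGACTCA, present in 4.46% of all windows, and the CRE motif TGACGTCA, present in 1.55%, were in none of the 3. These are matches of letters and not measured binding.

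Among the other genes that read lower in all 3 pairs were the decoy receptor gene Il1r2, whose product binds interleukin-1 without signalling, and Cd81, which encodes a tetraspanin of the cell surface. Il1r2 read 84.7, 60 and 79.6 FPKM in wild-type DN, TIM-3_SP and B7S1R_SP against 6.71, 10.1 and 3.68 FPKM in KO. The genotypes were far apart, with a log2 difference of -3.35 ± 0.39 (limma adjusted p = 0.0526). Cd81 read 109.3, 43.3 and 46.3 FPKM in the wild type against 11.8, 1.82 and 8.9 FPKM in KO, again without overlap, and differed by -3.11 ± 0.40 (limma adjusted p = 0.0697). The nuclear noncoding RNA gene Malat1 differed almost alike in each population, by -1.76 to -1.88 in the log2 difference. Malat1 stood at 343.8, 243.8 and 460.8 FPKM in the wild type and 100.5, 69.9 and 124.7 FPKM in KO. The genotypes did not overlap, and the limma adjusted p was 0.0843.

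The serpin genes Serpinb9b and Serpine2, whose products block serine proteases, and Tnfsf4, which encodes the ligand OX40L, completed the lower end with Ccdc184 and Osr2, the latter a zinc finger transcription factor gene. Serpinb9b stood at 128.2, 452 and 43.5 FPKM in wild-type DN, TIM-3_SP and B7S1R_SP and at 5.2, 126.2 and 0 FPKM in KO. Serpine2 stood at 421.8, 446.9 and 99.3 FPKM in the wild type and at 26.5, 122.5 and 0.96 FPKM in KO. Both read lowest against wild type in B7S1R_SP, and the genotypes overlapped because KO TIM-3_SP stayed above wild-type B7S1R_SP. Osr2 stood at 22.1, 20.7 and 3.47 FPKM in the wild type and at 0.29 FPKM or less in KO. The 5 limma adjusted p-values ran from 0.0843 to 0.0973.

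Among the genes that read higher in all 3 pairs were Dapl1, which is expressed in naive and memory-like T cells, and Klf2, which encodes a transcription factor of resting, recirculating T cells. Dapl1 stood at 106.4, 8.32 and 133.7 FPKM in wild-type DN, TIM-3_SP and B7S1R_SP and at 685.7, 201.1 and 468.2 FPKM in KO. All 3 KO libraries lay above all 3 wild-type libraries, and the log2 difference was 2.97 ± 0.45 (limma adjusted p = 0.0843). Klf2 stood at 12.9, 7.92 and 11.1 FPKM in the wild type and at 45, 25.8 and 48.3 FPKM in KO. Its pairs were close to each other, with differences of 1.73, 1.59 and 2.03 and a mean of 1.78 ± 0.33 (limma adjusted p = 0.132). In the wild-type libraries numbered 1, Dapl1 read 411.7, 5.27 and 167.4 FPKM and Klf2 read 68.5 FPKM in DN, which is above DN labelled KO.

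Lcn4, Pbk, which encodes a kinase of dividing cells, and Tmem108 showed no overlap of the genotypes, as did 5.11% of all genes in this direction. Lcn4 stood at 8.02, 17.6 and 4.51 FPKM in the wild type and at 86.8, 54.2 and 50.6 FPKM in KO, a log2 difference of 2.69 ± 0.42 (limma adjusted p = 0.0843). Pbk stood at 4.11, 6.56 and 12.2 FPKM against 69.7, 17.9 and 61.8 FPKM. Ly6c2, which encodes a surface protein of memory and activated CD8+ cells, did not overlap either, at 544.2, 196.5 and 93.8 FPKM in the wild type and 920.5, 571.1 and 549.3 FPKM in KO. Its direction turned to -0.15 against the wild-type libraries numbered 1, which held 1601, 453.2 and 540.4 FPKM.

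By contrast, Ifitm3, Fcer1g, Alox5ap and H2-Q1 were highest in B7S1R_SP labelled KO, the library with the most myeloid RNA. Ifitm3, which encodes an antiviral membrane protein, stood at 52.8, 6.91 and 1030.2 FPKM in KO DN, TIM-3_SP and B7S1R_SP against 11.1, 0.52 and 53.5 FPKM in the wild type. Fcer1g, which encodes an adaptor of Fc receptors in myeloid and NK cells, stood at 242.7, 166.5 and 1456 FPKM against 24.7, 93.6 and 285 FPKM. The log2 difference was widest in the B7S1R_SP pair for Ifitm3, at 4.24. For Fcer1g, Alox5ap and H2-Q1 it was widest in the DN pair, at 3.24, 4.64 and 4.37. In the B7S1R_SP pair these genes differed by 2.35, 1.10 and 2.34. The genotypes overlapped in all 4 genes. Rgs10, a regulator of G protein signalling, overlapped as well, with 44.6, 13.1 and 20.1 FPKM in the wild type and 116, 35.2 and 107.3 FPKM in KO.

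**Figure D3:**
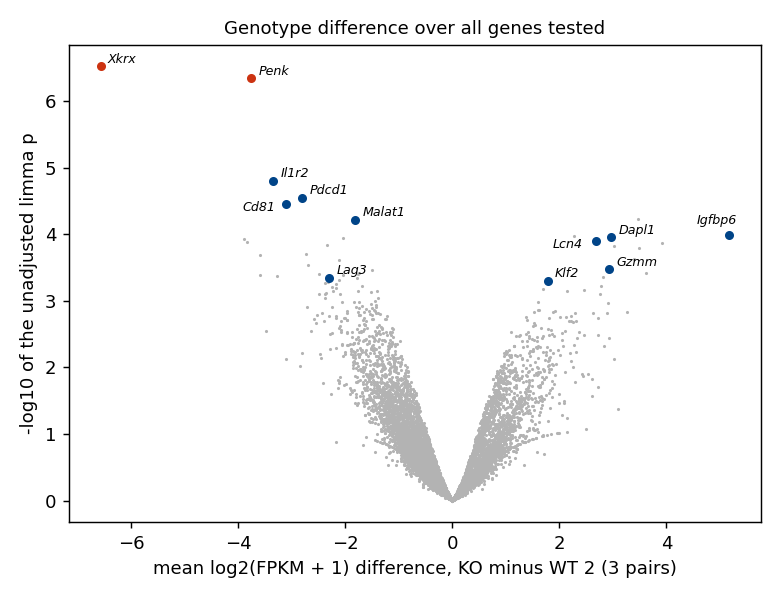
Mean difference in log2(FPKM + 1) between KO and wild type over 3 pairs (x axis) against the unadjusted limma p as -log10 (y axis) for 10092 genes. Xkrx and Penk (red) passed an adjusted p of 0.05, while Il1r2, Pdcd1, Cd81 and the other named genes (blue) did not.

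The inhibitory receptor list, receptors that restrain T cells, had a median log2 difference of -0.79 over the 19 of its 20 genes tested, against -0.16 over all genes. In this list 0 genes passed, 7 had an unadjusted p under 0.05 and were lower, and 0 were higher. Over all genes, 9.71% were lower and 5.5% higher at that unadjusted limma p. Lower in all 3 pairs were 8 of the 19 genes, against 23.5% of all genes. Lag3, which encodes a receptor for class II molecules, stood at 112.4, 79.6 and 6.2 FPKM in wild-type DN, TIM-3_SP and B7S1R_SP and at 10.1, 21.1 and 1.27 FPKM in KO, a log2 difference of -2.30 ± 0.42 (limma adjusted p = 0.126). Tigit, which competes with a costimulatory receptor for shared ligands, stood at 968.9, 1140.2 and 173.4 FPKM against 147.6, 809.2 and 25.9 FPKM. Within TIM-3_SP the Tigit gap was small, at -0.49, while DN and B7S1R_SP differed by -2.71 and -2.70. Ctla4, which takes B7 ligands away from CD28, and Klrc1, which encodes NKG2A, had the same shape. Ctla4 differed by -2.71, -0.76 and -1.75 and Klrc1 by -2.64, -0.08 and -3.11 in DN, TIM-3_SP and B7S1R_SP. The list's medians were -2.13, -0.49 and -0.76 in these populations, and the median of the mean difference was -0.53 without the DN pair and -1.48 without the B7S1R_SP pair.

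The exhaustion regulators, transcription factors linked to the exhausted state, had a median of -0.63 over 15 of 17 genes tested. It was -0.37 without the DN pair and -1.08 without the TIM-3_SP pair. Of the 15 genes 0 passed, and 6 were lower and 0 higher at an unadjusted p under 0.05, against 9.71% and 5.5% of all genes. Tox, which sets up the exhausted programme, stood at 179.6, 109.4 and 41.8 FPKM in the wild type and at 27.3, 65.5 and 22.2 FPKM in KO. Bhlhe40, a factor of cytokine-making T cells, stood at 282.5, 193.1 and 38 FPKM against 19.2, 95.3 and 9.32 FPKM. Both read lower in each pair, by -1.43 ± 0.41 and -2.25 ± 0.48, with limma adjusted p-values of 0.197 and 0.159. Batf differed by -1.09 and Eomes by -1.44, each lower in 3 of 3 pairs. Nr4a1, which is induced by T cell receptor signals, was the only gene of this list whose genotypes did not overlap, with 10.3, 12 and 8.76 FPKM against 5.21, 4.68 and 3.45 FPKM. Over all genes, 9.95% lay lower in KO without overlap.

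The median of the signalling genes downstream of PD-1 and the T cell receptor was -0.59 over 16 of 18 genes, and 0.03 without the DN pair. Of the 16 genes 0 passed, and 3 were lower at an unadjusted p under 0.05, against 9.71% of all genes. Lcp2, which encodes the adaptor SLP-76, differed by -2.14, -0.93 and -1.11 in DN, TIM-3_SP and B7S1R_SP. Ptpn6, which encodes the phosphatase SHP-1, differed by -1.39, -0.54 and -0.74. Neither passed, at limma adjusted p-values of 0.172 and 0.247.

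The immediate early and stress genes, which answer T cell receptor signals and handling within minutes to hours, had a median of -0.97 over 25 of 26 genes. By population it was -2.11, -0.61 and 0.03. Of the 25 genes 0 passed, and 10 were lower at an unadjusted p under 0.05, against 9.71% of all genes. In B7S1R_SP 12 of the 25 genes read lower and 13 higher. Junb, an AP-1 subunit, stood at 363.2, 157.4 and 63 FPKM in wild-type DN, TIM-3_SP and B7S1R_SP and at 43.2, 58.7 and 46.3 FPKM in KO. Its genotypes did not overlap, and the pair differences were -3.04, -1.41 and -0.44. Dusp1, a phosphatase that switches off stress kinases, and Egr1, a factor of early receptor signalling, differed by -3.43 and -3.11 in DN and by 0.03 and 0.05 in B7S1R_SP. Zfp36l1, which promotes decay of cytokine messages, stood at 122.6, 73.8 and 46.4 FPKM against 24.7, 27.1 and 23 FPKM, without overlap, and differed by -1.55 ± 0.34 (limma adjusted p = 0.159). Without the DN pair the median of the list was -0.37.

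The stem-like and memory genes did not read in 1 direction. Of 20 genes, all tested, 0 passed. At an unadjusted p under 0.05, 6 were higher and 3 lower, against 5.5% and 9.71% of all genes. Higher in all 3 pairs were 8 genes, against 14.1% of all genes. The list's median was 0.32 in the mean difference, and -0.42, 1.00 and 0.46 by population. It was 1.09 without the DN pair and -0.37 against the wild-type libraries numbered 1. Beside Dapl1, Klf2 and Ly6c2, the gene Lef1, whose product is a partner of TCF-1, read higher in each pair. Lef1 went from 1.49 to 16.6 FPKM in TIM-3_SP and from 21.5 to 37.4 FPKM in DN. Against the wild-type libraries numbered 1, which held 53.5 FPKM in DN and 38.9 FPKM in B7S1R_SP, its difference was -0.0204. Slamf6, a surface marker of stem-like cells, read the other way, at 296, 17.5 and 36 FPKM in the wild type and 30.8, 7.84 and 8.97 FPKM in KO, a log2 difference of -2.06 ± 0.43 (limma adjusted p = 0.159).

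**Figure D4:**
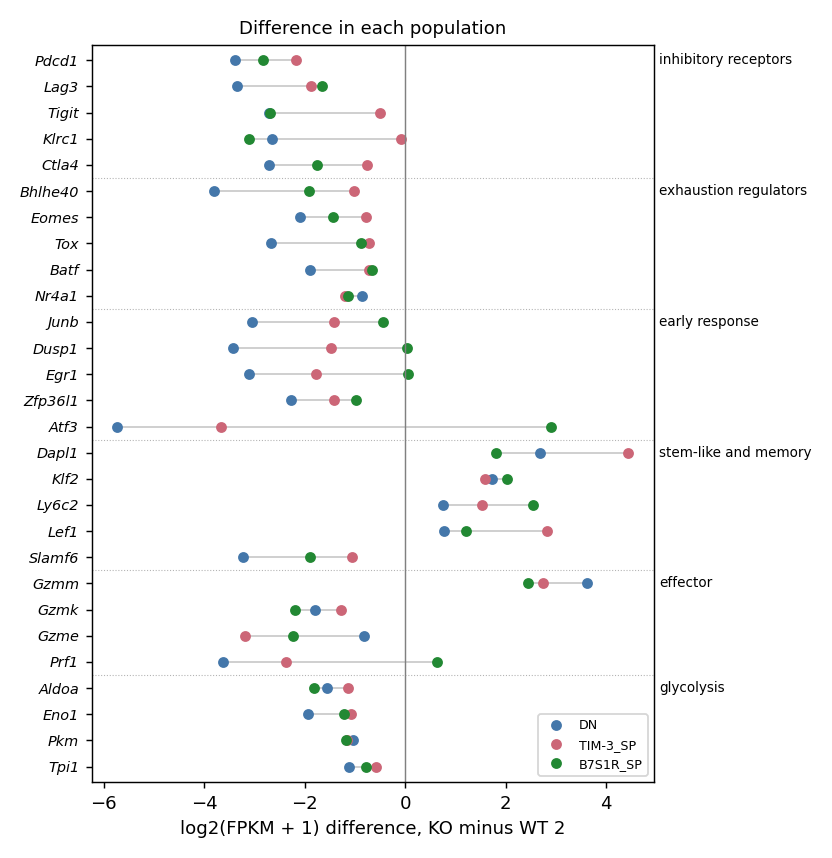
Difference in log2(FPKM + 1) between the KO and wild-type library of each population for genes of 6 lists, with a grey line over the range of the 3 populations. DN (blue) holds the lowest value for Tox, Bhlhe40 and Junb, Dapl1 and Lef1 are highest in TIM-3_SP (red), and Atf3 spans from -5.73 in DN to 2.90 in B7S1R_SP.

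The effector molecules, which T cells use to kill or to signal, had a median of -0.56 over 24 of 24 genes, with 0 past the threshold. Without the DN pair this median was -0.06. In the list 7 genes were lower and 3 higher at an unadjusted p under 0.05, against 9.71% and 5.5% of all genes. Gzmm, a granzyme of innate-like and memory cells, was listed at 0, 0.06 and 0 FPKM in wild-type DN, TIM-3_SP and B7S1R_SP and at 11.2, 6.04 and 4.42 FPKM in KO. All 3 KO libraries were higher, and the log2 difference was 2.93 ± 0.52 (limma adjusted p = 0.126). The wild-type libraries numbered 1 held 7.65, 2.0 and 0 FPKM of Gzmm, so that DN wild type there lay above KO TIM-3_SP and KO B7S1R_SP. Gzmk, a granzyme of less differentiated effector cells, stood at 104.8, 287.9 and 12.9 FPKM in the wild type and at 29.4, 118.2 and 2.03 FPKM in KO. It read lower in each pair, by -1.76 ± 0.32 (limma adjusted p = 0.126). Gzmd and Gzme were largely confined to TIM-3_SP in these 6 libraries, where Gzmd went from 222.1 to 8.06 FPKM and Gzme from 311.5 to 33.4 FPKM. These granzymes are close paralogs, so reads cannot be assigned between them with certainty. Prf1, which encodes the pore former perforin, went from 127.6 to 24 FPKM in TIM-3_SP and from 30.4 to 1.54 FPKM in DN, and was at 0.55 FPKM or less in both B7S1R_SP libraries.

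The costimulatory receptors, which add to T cell receptor signals, had a median of -1.15 over 11 of 12 genes, with 0 past the threshold. Of the 11 genes 8 were lower at an unadjusted p under 0.05, against 9.71% of all genes. Tnfrsf4, which encodes OX40, the receptor for the product of Tnfsf4, stood at 345.9, 466.5 and 88.6 FPKM in the wild type and at 129.7, 259.5 and 20.9 FPKM in KO. Tnfrsf9, which encodes 4-1BB, differed by -2.14, -0.50 and -2.33, Icos by -2.65, -0.26 and -1.77, and Tnfrsf18, which encodes GITR, by -1.52, -0.42 and -1.51. In all 4 genes TIM-3_SP showed the smallest gap. The limma adjusted p-values of the 4 genes ran from 0.159 to 0.202.

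The chemokine and cytokine receptors had a median of -0.80 over 18 of 20 genes, with 0 past the threshold. Of the 18 genes 9 were lower at an unadjusted p under 0.05, against 9.71% of all genes. Il10ra, which encodes the ligand-binding chain for interleukin-10, stood at 57.5, 23.2 and 8.12 FPKM in the wild type and at 4.02, 6.12 and 1.56 FPKM in KO. Its genotypes did not overlap, and it differed by -2.38 ± 0.48 (limma adjusted p = 0.141). Il2rb, a signalling chain for interleukin-2 and interleukin-15, differed by -3.88 in DN against -1.26 and -1.02 in TIM-3_SP and B7S1R_SP. Cxcr3, a receptor for interferon-induced chemokines, differed by -3.54, -0.34 and -1.11, and Cxcr6, a receptor of tissue-dwelling T cells, by -2.81, -0.84 and -1.04. The 10 genes tested of 14 in the tissue residency list had a median of -0.60, with 0 past the threshold, which was -0.19 without the DN pair and -1.01 without the B7S1R_SP pair.

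Glycolysis, the breakdown of glucose to lactate, had a median of -0.77 over 14 of 15 genes. By population the medians were -0.94, -0.52 and -0.80, and 3 of the 14 genes read higher in TIM-3_SP. Of the 14 genes 0 passed, and 6 were lower at an unadjusted p under 0.05, against 9.71% of all genes. Lower in all 3 pairs were 11 genes, against 23.5% of all, and 5 lay lower without overlap, against 9.95% of all. Aldoa, the aldolase gene, stood at 567.9, 550.1 and 741.1 FPKM in the wild type and at 193.2, 250.4 and 210.8 FPKM in KO, a log2 difference of -1.50 ± 0.26 (limma adjusted p = 0.126). Eno1, the enolase gene, stood at 657, 472.9 and 489.5 FPKM against 170.1, 222.6 and 209.8 FPKM. Pkm, the pyruvate kinase gene, differed by -1.04, -1.17 and -1.17, and Tpi1, the triose phosphate isomerase gene, by -1.12, -0.59 and -0.79. All 4 genes were lower in 3 of 3 pairs without overlap.

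The cell cycle list had a median of 0.45 over 25 of 25 genes, with 0 past the threshold. In the list 2 genes were higher at an unadjusted p under 0.05, against 5.5% of all genes. Birc5, which encodes survivin, a protein of dividing cells, stood at 16.4, 180.03 and 32 FPKM in the wild type and at 104.6, 211.3 and 125.8 FPKM in KO. The gap lay in DN and B7S1R_SP, and the list's medians were 0.80 and 0.67 there against 0.01 in TIM-3_SP, while the median of the mean difference was 0.26 without the B7S1R_SP pair. T cell identity genes had a median of -0.73 over 13 of 16 genes (-0.41 without the DN pair), with 0 past the threshold. Of the 13 genes 6 were lower at an unadjusted p under 0.05, against 9.71% of all genes. Cd3e, a chain of the T cell receptor complex, stood at 337.3, 371.6 and 142.8 FPKM against 97.2, 231.7 and 34.2 FPKM, and Cd247, the zeta chain gene, differed by -2.56, -0.50 and -0.73. The adhesion receptor gene Cd2 differed by -1.23, -0.66 and -0.45. The lower T cell genes stand beside the lower inhibitory and costimulatory receptor genes in the same libraries, and the part of T cell content in those differences was not tested.

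The type I interferon response, genes switched on by interferons alpha and beta, had a median of -0.16 over 15 of 18 genes, equal to that of all genes, with 0 past the threshold. Its direction was not stable: the median was 0.28 with a pseudocount of 0.1, and it was -0.59 in DN and 1.09 in B7S1R_SP. Mx1, annotated as a transcribed pseudogene in this assembly, stood at 1.19, 0.69 and 3.65 FPKM in the wild type and at 11.9, 2.01 and 21.1 FPKM in KO. Bst2, which encodes the antiviral protein tetherin, read the other way, at 109, 72.9 and 101.7 FPKM against 71.8, 29.9 and 71.9 FPKM.

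**Figure D5:**
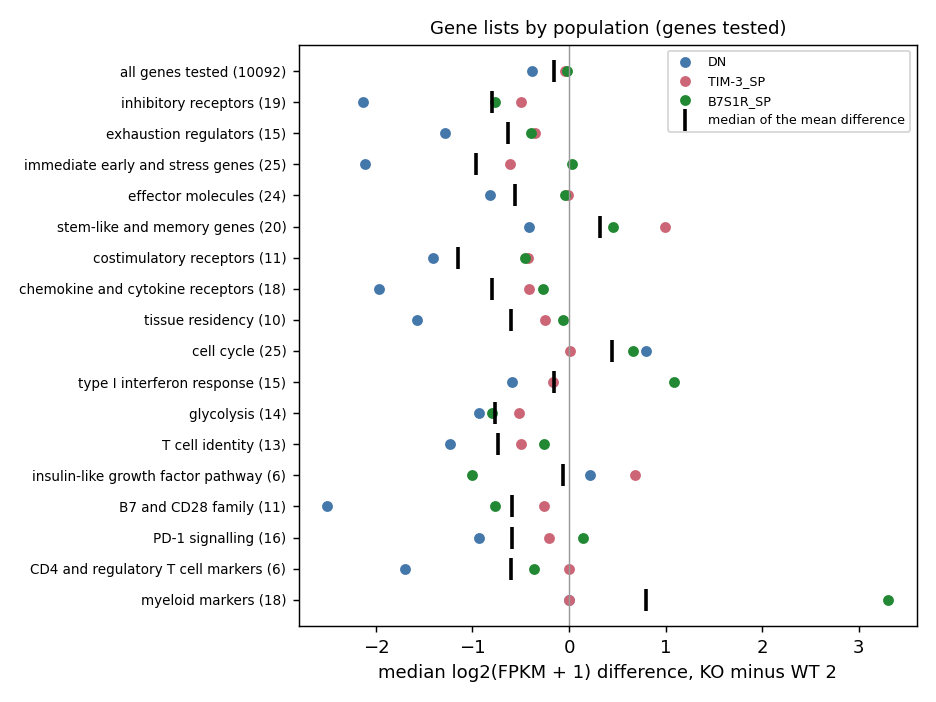
Median difference in log2(FPKM + 1) between KO and wild type for each gene list with at least 6 genes tested, in DN (blue), TIM-3_SP (red) and B7S1R_SP (green), with the median of the mean difference as a black bar and the number of genes in brackets. The inhibitory receptor medians are -2.13, -0.49 and -0.76 in this order, and the myeloid median stands at 3.31 in B7S1R_SP alone.

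The pathways around Penk and Igfbp6 were thinly expressed. Of the 14 opioid pathway genes 4 reached a mean of 1 FPKM, and Penk alone passed, while the other 3 had no unadjusted p under 0.05. Of 15 genes of the insulin-like growth factor pathway 6 were tested and 0 passed. Igfbp4, another binding protein of the family, was listed at 0, 0.02 and 0 FPKM in the wild type and at 5.84, 2.84 and 3.59 FPKM in KO, a log2 difference of 2.30 ± 0.51 (limma adjusted p = 0.159). Igfbp7 read the other way, at 20.6, 35.6 and 4.98 FPKM against 11.9, 15 and 0.59 FPKM.

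In the list of the B7 and CD28 family with related ligands, to which Vtcn1 and Pdcd1 belong, 11 of 16 genes were tested. Their median was -0.59 (-1.08 without the TIM-3_SP pair and -1.24 without the B7S1R_SP pair). Of the 11 genes 0 passed, and 4 were lower at an unadjusted p under 0.05, against 9.71% of all genes. Vtcn1 itself did not reach the mean of 1 FPKM. Beside Pdcd1, Ctla4 and Icos, the fourth was Tnfrsf14, a gene of the TNF receptor family that encodes HVEM, the ligand of BTLA. Tnfrsf14 stood at 8.52, 1.9 and 2.24 FPKM in the wild type and at 0.18, 0.19 and 0 FPKM in KO, without overlap, and differed by -2.00 ± 0.55 (limma adjusted p = 0.193).

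Each population was also read on its own, where 1 library stands against 1 and no replicate check exists. Counting genes at 5 FPKM or more in the higher library and past 2-fold, DN labelled KO had 2607 lower genes (25.8%) and 952 higher (9.43%). TIM-3_SP had 811 lower (8.04%) and 404 higher (4%), and B7S1R_SP had 882 lower (8.74%) and 697 higher (6.91%). In all 3 populations 191 genes were past 2-fold, of which 138 went one way, 103 lower and 35 higher. Across genes, the differences correlated at 0.294 between DN and TIM-3_SP, 0.204 between DN and B7S1R_SP and 0.176 between TIM-3_SP and B7S1R_SP, as a description over genes that share libraries and scaling.

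Xkrx, Atf3 and Alas2 were among the 4 widest lower differences named by rule within DN. Atf3, a stress-induced transcription factor gene, went from 76 to 0.45 FPKM in DN, from 42.7 to 2.42 FPKM in TIM-3_SP, and from 1.54 up to 18 FPKM in B7S1R_SP. Alas2 went from 37.9 to 0.05 FPKM in DN and from 25.5 to 0.06 FPKM in TIM-3_SP, alongside the haemoglobin genes. In TIM-3_SP, Dapl1 and Igfbp6 were among the 4 widest higher differences. In B7S1R_SP these included the monocyte chemokine genes Ccl8, from 0 to 277.8 FPKM, and Ccl12, from 0 to 178.25 FPKM. The macrophage complement gene C1qb went from 9.18 to 586.9 FPKM and the class II gene H2-Aa from 17.6 to 870.8 FPKM in the same pair. H2-Ab1 went with them, from 16.1 to 471.9 FPKM, though B7S1R_SP wild type numbered 1 held 526.3 FPKM, and the mean differences of H2-Ab1 and H2-Aa turned to -0.38 and -0.18 against the libraries numbered 1. The NK receptor gene Klre1 went from 101.03 to 8.91 FPKM there, against 613.2 and 663.01 FPKM in the TIM-3_SP pair.

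Whether the genotype difference itself differed between populations was tested in limma over all 9 sorted libraries, where the spread comes from the wild-type pairs. Of 10176 genes 0 passed (0%), and 41 had an unadjusted p under 0.05, with a smallest adjusted p of 1.00. Ccl12 had an unadjusted interaction p of 0.000951 and Ccl8 of 0.00312, against 0.394 for Penk, 0.790 for Pdcd1 and 0.337 for Igfbp6. With this replication, no gene was shown to differ between populations.

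The bulk OVA-specific CD8+ cells of wild-type and B7S1 KO mice, 1 library each from 6 mice per group, share no library with the sorted comparison. Penk stood at 1105 RPKM (reads scaled in the same way) in wild type and 652.5 RPKM in KO, and Il1r2 at 500.9 and 288.1 RPKM. Cd81 went from 105.3 to 25.0 RPKM. These 3 genes read lower in both designs, with no replicate check in the bulk pair. Pdcd1 went the other way in bulk, at 77.8 RPKM in wild type and 120.6 RPKM in KO, and so did Dapl1, at 181.8 and 49.6 RPKM. Igfbp6 was at 0.254 RPKM or less and Xkrx at 0.0311 RPKM or less in both bulk libraries. Gzmm was higher in the bulk KO library as well, at 0.0701 against 10.4 RPKM. Of 2210 genes that read lower in all 3 sorted pairs and are listed in bulk, 48.8% were lower in the bulk KO library, against 51.3% of all 8968 genes listed. Of 1267 genes that read higher in all 3 pairs, 44.4% were higher in bulk, against 48.7% of all. Of the 12 lower genes named by rank, 9 of the 11 listed in bulk were lower there, and of the 12 higher genes 7 were higher. These counts take the sign alone and include genes near the floor in bulk: Xkrx among the lower, Igfbp6 and Tmem108 among the higher. Tmem108 was at 0.0488 RPKM in wild type and 0.135 RPKM in KO. Vtcn1 in the bulk pair stood at 0.0687 RPKM in wild type and 9.46 RPKM in KO.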

How the data were processed

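cDNA came from a SMARTer ultra low input kit, per the labels' protocols, and was sequenced on Illumina HiSeq machines, per the series' design text. The deposited values of sorted libraries are FPKM rounded to 2 decimals, and those of the bulk pair are RPKM with 0.001 as the lowest value, per the file headers. The submitters' processing notes name HISAT2, Bowtie2, RSEM and mm10. Versions, filters and annotation are not given in the sources used here, and depth behind the values is unknown.

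Groups followed the titles. The 6 files list 17605 unique symbols; repeated symbols (4 rows a file) and 7 haemoglobin genes were set aside. Genes averaging 1 FPKM or more were tested in limma 3.58.1 (R 4.3.3), on the scale log2(FPKM + 1), with genotype and population as terms, a trended prior and Benjamini-Hochberg adjustment at 0.05. Differences are on that scale and understate changes of low genes. The fit was also run on simulated data with known changes and independent noise. Those data lack the red-cell and myeloid differences of these libraries, so the run does not test how the fit handles them.

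Genes were named by rule: Pdcd1, Penk and Igfbp6, the 12 smallest p-values each way among genes with at least 0.5 in each pair and a mean of 5 FPKM, the 4 largest differences each way per population at 20 FPKM or more, and up to 6 members per list. Predicted genes, small RNAs and receptor segments were left out, and some genes the rule names are not reported here. The members and lists were chosen with earlier results of these data known. Alternatives covered pseudocounts, filters, scaling, pairing, controls and left-out pairs. The wild-type numbers were taken to pair libraries, which is an assumption. Differences between the sets numbered 2 and 1 had correlations of 0.186, 0.264 and 0.397 from one population to another (10408 genes). The sets list different genes, so these correlations cannot tell pairing of libraries from a difference between the tables. The KO libraries carry no number and were placed with number 2. Antibody-treated libraries were not used here.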

Additional observations from a re-analysis of the deposited data

Results flagged for a closer look

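Atf3 went in opposite directions in the populations. Its difference in log2(FPKM + 1) between KO and wild type was -5.73 in DN and -3.68 in TIM-3_SP, and 2.90 in B7S1R_SP, with 1 library against 1 in each. In the limma interaction test over 9 libraries its unadjusted p was 0.15, so the populations were not shown to differ. In the wild-type libraries numbered 1, Atf3 stood at 10.9, 13.9 and 48.4 FPKM in DN, TIM-3_SP and B7S1R_SP.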

How the results depend on the processing

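Against 2 calls, limma gave 2 with a pseudocount of 0.1, 3 with one of 4, 0 with no filter on FPKM, 3 with a filter at 5 FPKM, 2 with median-ratio scaling, 1 (Xkrx) with no replicate block, that is, unpaired, 0 with the replicate block over 9 libraries (smallest adjusted p 0.102), 0 over 9 libraries without it, 0 without the trended prior, and 10 with haemoglobin genes kept. With each library set to one total, an alternative chosen after seeing the data, it gave 4. With the wild-type libraries numbered 1 as controls it gave 2488, where genotype and table cannot be told apart. Leaving out 1 pair gave 4 to 274. The causes were not tested. Genes below an unadjusted p of 0.05 numbered 1415 with no filter, 894 with the replicate block, 1639 over 9 libraries without it and 1252 without the trend. Many named genes were chosen for a small p or for 1 direction in the same libraries, so settings that keep these libraries say little of their direction. Against the wild-type libraries numbered 1, 4 of the 71 genes listed there turned: Ly6c2 (-0.15), Lef1 (-0.0204), H2-Aa (-0.18) and H2-Ab1 (-0.38). That setting keeps the KO libraries by which genes were chosen, so it is no independent check of direction. Over all genes listed there, 39.7% were lower than the wild-type libraries numbered 1 in all 3 pairs and 16.3% higher. Penk lost its call with no filter, unpaired, with either fit over 9 libraries and without the trend, and Xkrx in the same settings except the unpaired one. For genes past 2-fold, a pseudocount of 4 gave 222 higher and 485 lower in TIM-3_SP and 451 and 536 in B7S1R_SP. One total per library gave 548 higher in DN and 256 higher and 1245 lower in TIM-3_SP. The wild-type libraries numbered 1 gave 1234 and 3640 in TIM-3_SP and 1347 and 3995 in B7S1R_SP. Depth is unknown, so values near 0 cannot be given a limit.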
